A study of Schizosaccharomyces pombe with 13 samples.

Results

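The flocculin-like cell surface glycoproteins of fission yeast (Schizosaccharomyces pombe) are encoded by gsf2 and by pfl2 to pfl9, and their RNA was compared between 3 deletion strains and wild type. The 9 genes were taken by identifier, and all 9 were found among the 5747 entries of the deposited sense table. Of the 1561 entries of the deposited antisense table, 2 belonged to these genes, pfl8 and gsf2. The other 7 genes were not listed there. Libraries were strand-specific, so sense and antisense reads were counted apart. The tables gave each gene's log2 fold against wild type with an adjusted p-value, and no value per library was used here, so the folds below stand without a standard error. A gene is said to have risen or fallen where the authors' adjusted p-value was under 0.05.

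The strains were a xap5 deletion (3 libraries, h+, a Bioneer strain with KanMx4 in place of xap5), a pht1 deletion (3 libraries, h−, NatMx4 in place of pht1), a strain with both deletions (3 libraries, h−) and wild type (4 libraries, h+). All of them carried ade6-M216, ura4-D18 and leu1-32 in the ED668 background, and all were grown in YES at 30 °C and then in EMM50 at 37 °C before RNA was taken in exponential growth. H2A.Z, a variant of histone H2A, is the product of pht1, while xap5 codes for a nuclear protein found from yeast to humans. The labels do not say how the replicates were grown, so the deposited p-values may measure technical spread alone. All 3 comparisons share the wild type libraries.

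In the deposited sense table the entry of xap5 had a log2 fold of −3.11 in the xap5 deletion and −2.11 in the double deletion, and the pht1 entry had −2.13 without pht1 alone and −1.55 without both. Mating type differs by label between wild type and the pht1 and double deletions, so its part in their folds cannot be told apart from that of the deletions. Pheromone genes did not all follow the mating-type labels. Of 6 genes described as serving M-factor or P-factor, mfm2 and mam1, both active in h− cells, fell in the xap5 deletion (deposited log2 folds of −2.62 and −0.31) although both it and wild type carry the label h+, and map3, which encodes the M-factor receptor of h+ cells, rose there (0.53). In the pht1 deletion, labelled h−, none of the 6 passed the threshold. In the double deletion, also labelled h−, the 4 that rose were mfm1, mfm2, mfm3 and mam1, and map2 and map3 were not called. These 4 rises had the direction of that label. Any link between these pheromone gene changes and the folds of the flocculin-like genes was not tested.

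Flocculins are glycoproteins that sit on the outside of the yeast cell and hold cells together in clumps. They are usually long proteins with serine- and threonine-rich repeats that carry sugars. In fission yeast Gsf2 is the principal flocculin and binds galactose residues on neighbouring cells, while the pfl genes were named as predicted flocculins from their sequence. The MADS-box factor Mbx2 is known to activate genes of the family, and the kinase Lkh1 and the kinase module of Mediator are known to hold flocculation back.

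The sequences were rich in serine and threonine, which is no independent support for the label because the pfl genes were named from sequence. Serine and threonine codons made up between 26.7% of the codons in pfl9 and 56.3% in pfl2, with 43.9% in gsf2, and all 9 genes lay above the 95th percentile of 20.7% over 4893 protein-coding genes, whose median was 13.9%. The deposited descriptions named 7 of the 9 as cell surface glycoproteins, 3 of them (pfl3, pfl7 and pfl9) as members of the DIPSY family, and called gsf2 and pfl2 sequence orphans. Tandem repeats were found in 6 coding sequences. The repeat of pfl5 had a unit of 105 bases in 25.1 copies and covered 68.5% of the coding sequence. That of gsf2 had a unit of 234 bases in 6.4 copies, in which 97.9% of bases equalled those of the neighbouring unit. No repeat was found in pfl6, pfl8 or pfl9, which are among the shortest of the family with 416, 385 and 326 codons.

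One repeat unit of gsf2 is shown because these near-identical copies are what a read of 100 bases must be placed in. It lies on the reverse strand at chrIII:963124-963357 (RefSeq, ASM294v3), and its capitals are the bases that differ from the next unit.
gsf2 repeat unit: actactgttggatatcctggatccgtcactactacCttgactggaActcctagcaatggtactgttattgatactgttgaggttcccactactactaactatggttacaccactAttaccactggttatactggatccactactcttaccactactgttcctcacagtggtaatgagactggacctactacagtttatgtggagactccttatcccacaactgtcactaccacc
The units of pfl3 and pfl5 have the same length of 105 bases and are shown in register, with capitals at the 28 bases that differ between them. The pfl3 unit lies on the reverse strand at chrII:671143-671247 and the pfl5 unit on the forward strand at chrII:4422131-4422235.
pfl3 repeat unit: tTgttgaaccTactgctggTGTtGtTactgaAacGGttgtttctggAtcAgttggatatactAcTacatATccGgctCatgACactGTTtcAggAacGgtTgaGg
pfl5 repeat unit: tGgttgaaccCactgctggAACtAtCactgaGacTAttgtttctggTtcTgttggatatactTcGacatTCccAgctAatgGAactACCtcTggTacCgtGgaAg
The pair shared 77 of 105 bases, or 73.3%. Windows of 100 bases that recur inside the same gene made up 35.1% of gsf2, 32.4% of pfl5, 22.9% of pfl3 and 8.83% of pfl2. Windows that recur outside the gene were found for pfl6 alone among the 9 genes, at 91.3% of its windows, all shared with SPBC1348.08c, another surface glycoprotein gene. Counts of pfl6 are therefore uncertain.

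The family did not move as a block: in each strain some members rose, others fell and the rest did not pass the threshold. In the authors' deposited table for the double deletion, pfl2, pfl4 and pfl5 rose, pfl3, pfl7 and pfl8 fell, and gsf2, pfl6 and pfl9 were not called. Of all entries of that comparison, 30.5% rose and 34.3% fell, against 3 of 9 (33.3%) in each direction here, so the share of changed members was near the background. In the xap5 deletion gsf2, pfl2, pfl4 and pfl5 rose and pfl3 and pfl9 fell in the deposited table, which is 4 of 9 (44.4%) higher and 2 of 9 (22.2%) lower beside 21.1% and 20.6% of all entries. At adjusted p under 0.01 the xap5 deletion kept 2 rises (pfl2 and pfl4) and 0 falls, beside 16.3% and 15.2% of all entries. At that stricter threshold the pht1 deletion kept 0 rises and the fall of pfl3, beside 8.6% and 5.76% of all entries. In the pht1 deletion pfl5 rose and pfl3 fell in the deposited table, 1 of 9 (11.1%) in either direction beside 13.5% and 11.1% of all entries.

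The median of the 9 deposited log2 folds was 0.13 in the xap5 deletion, 0.08 in the pht1 and −0.01 in the double deletion, and that of all entries was −0.01, −0.02 and −0.05 in the same order. The spread between members was wide around these medians. The deposited folds ran from −0.95 to 0.86 in the xap5 deletion, from −0.65 to 0.59 in the pht1 deletion and from −1.82 to 1.59 in the double deletion. Only pfl3 and pfl5 among the 9 genes were called in all 3 comparisons, and only pfl6 in none. The share of all entries with these patterns was not counted, so they cannot be set against the background. RNA came from whole cultures, so a change in all cells cannot be told apart from a change in the share of cells that express a gene.

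**Figure D1:**
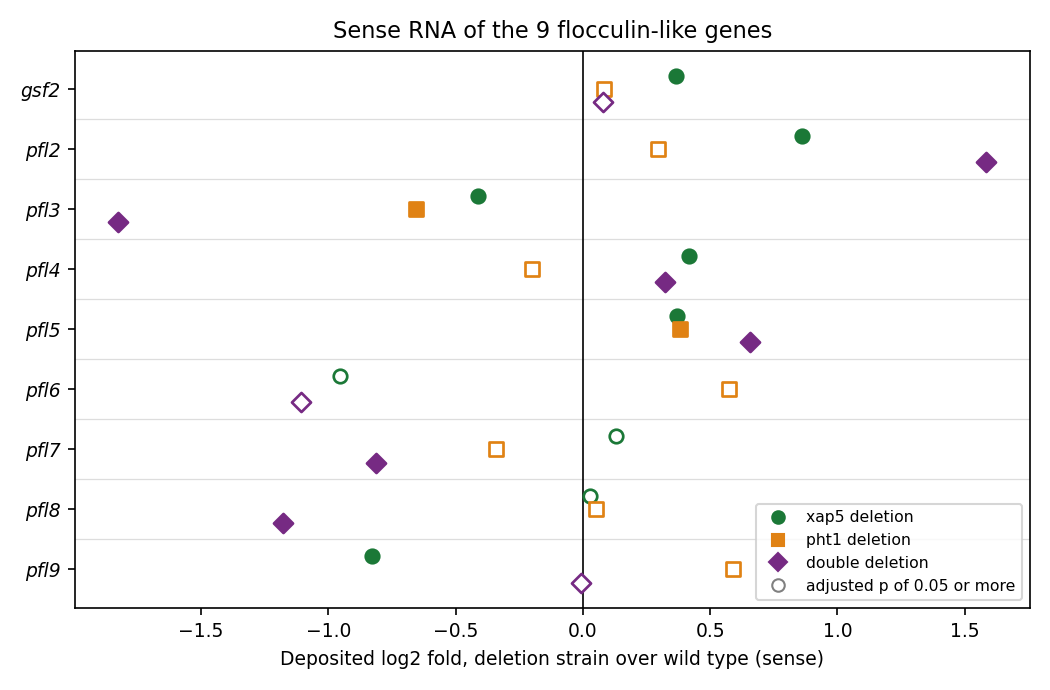
Deposited log2 folds of sense RNA (horizontal axis) for the 9 flocculin-like genes (rows) in the xap5, the pht1 and the double deletion over wild type. Filled symbols have an adjusted p under 0.05, and no error bars can be drawn because no standard errors were used here. The double deletion has both ends of the range, pfl3 at −1.82 and pfl2 at 1.59.

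The gene gsf2 (SPCC1742.01, chrIII:959199-966012, reverse strand), which encodes the principal flocculin, changed little in sense. It had a deposited log2 fold of 0.37 in the xap5 deletion (adjusted p = 0.029), a rise to 1.29 times wild type. The deposited values were 0.08 in the pht1 deletion (adjusted p = 0.715) and 0.08 in the double deletion (adjusted p = 0.639).

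The member with the largest rise was pfl2 (SPAPB15E9.01c, chrI:3987033-3991412, reverse strand), the most serine- and threonine-rich of the 9. Its deposited log2 fold was 0.86 in the xap5 deletion (adjusted p = 0.00285), 0.29 in the pht1 deletion (adjusted p = 0.422) and 1.59 in the double deletion (adjusted p = 3.17e-09). The last of these is 3.0 times the wild type level. Its fold in the double deletion was 0.72 above that of the xap5 deletion and 1.29 above that of the pht1 deletion on the log2 scale, differences of deposited values that have no error and were not tested.

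The member with the largest fall was pfl3 (SPBC947.04, chrII:669581-672835, reverse strand), a DIPSY-family protein by its deposited description, and it fell in every deletion strain. Its deposited log2 fold was −0.41 in the xap5 deletion (adjusted p = 0.0139), −0.65 in the pht1 deletion (adjusted p = 1.21e-04) and −1.82 in the double deletion (adjusted p = 2.97e-31). The double deletion thus held 0.282 of the wild type level, and this fold was the 22nd lowest of the 5747 deposited entries. The 2 single folds add up to −1.07, which leaves the double deletion fold 0.76 below their sum on the log2 scale (a difference of −0.76, untested).

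Smaller rises were found at pfl5 (SPBC1289.15, chrII:4421395-4425608, forward strand), the gene with the longest repeat stretch. Its deposited log2 folds were 0.37 in the xap5 deletion (adjusted p = 0.0103), 0.38 in the pht1 deletion (adjusted p = 0.0138) and 0.66 in the double deletion (adjusted p = 5.83e-07). The double deletion fold differed from the sum of the single folds by −0.10. The gene pfl4 (SPCC188.09c, chrIII:1492788-1496382, reverse strand) had deposited folds of 0.42 in the xap5 deletion (adjusted p = 0.00334), −0.20 in the pht1 deletion (adjusted p = 0.264) and 0.32 in the double deletion (adjusted p = 0.0181).

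Of the short members, pfl7 (SPBC359.04c, chrII:117892-119328, reverse strand) fell in the double deletion, with a deposited log2 fold of −0.81 (adjusted p = 0.00278). Its deposited folds were 0.13 in the xap5 deletion (adjusted p = 0.697) and −0.34 in the pht1 deletion (adjusted p = 0.315). The gene pfl9 (SPAC186.01, chrI:5527692-5528959, forward strand) fell in the xap5 deletion, with a deposited log2 fold of −0.83 (adjusted p = 0.0431). It had 0.59 in the pht1 deletion (adjusted p = 0.131) and −0.01 in the double deletion (adjusted p = 1) in the deposited table, so its fold in the double deletion lay between those of the single deletions. The gene pfl6 (SPAC977.07c, chrI:42057-43307, reverse strand) showed −0.95, 0.57 and −1.11 on the deposited log2 scale in the xap5, the pht1 and the double deletion, with adjusted p of 0.269, 0.436 and 0.133. These folds are larger than those of pfl5, yet none passed the threshold.

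The largest deposited fold in the family was antisense to pfl8 (SPAC1F8.06, chrI:99833-101431, forward strand). Antisense signal at pfl8 rose in all 3 strains, with deposited log2 folds of 4.64 in the xap5 deletion (adjusted p = 4.81e-06), 4.13 in the pht1 deletion (adjusted p = 1.35e-04) and 5.71 in the double deletion (adjusted p = 5.28e-11). On a linear scale these are 25.0, 17.5 and 52.5 times wild type. No read counts were used here, so the number of wild type reads behind these folds is not known. Sense RNA of pfl8 had deposited folds of 0.03 in the xap5 deletion (adjusted p = 0.95) and 0.05 in the pht1 deletion (adjusted p = 0.89), and fell by 1.18 in the double deletion (adjusted p = 2.77e-07), to 0.442 of wild type. The rise antisense to pfl8 was thus present in the single deletions without a call in sense.

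The antisense table has 1052 entries for signal opposite an annotated gene, and by its header it lists entries selected on their p-value. Of these, 22.5% rose in the xap5 deletion, 41.4% in the pht1 and 76.6% in the double deletion. Among the 1052, the deposited fold at pfl8 was the highest in the double deletion and ranked 2nd in each single deletion. In the pht1 deletion it was equal to that of SPBC1652.02. Of the 1052 deposited folds, 48 in the xap5, 33 in the pht1 and 30 in the double deletion were shared exactly with another entry.

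The sense fold of pfl8 in the double deletion was also low, the 144th lowest of 5747 deposited entries. It differed from the sum of the single folds by −1.25 on the log2 scale, the largest such difference among the 9 genes, and this was not tested.

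An annotated noncoding RNA, SPNCRNA.607, lies opposite pfl8 at chrI:99046-101140 on the reverse strand. It covers 1308 bases of pfl8, or 81.8% of the gene, and 1130 of its 1158 coding bases. Its start lies 28 bases before the end of the coding sequence, and it runs on for 787 bases upstream of pfl8. The end of the pfl8 coding sequence (chrI:101019-101168, forward strand, RefSeq, ASM294v3) is shown because it holds this start, with capitals for the bases that lie within SPNCRNA.607 on the other strand.
pfl8 coding end: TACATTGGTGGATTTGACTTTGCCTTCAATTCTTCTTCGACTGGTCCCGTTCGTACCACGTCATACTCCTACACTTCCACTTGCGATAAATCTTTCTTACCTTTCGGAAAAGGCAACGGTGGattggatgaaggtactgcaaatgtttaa
SPNCRNA.607 is listed in the deposited antisense table as an annotated antisense RNA with its own level, among entries selected on their p-value. It rose in all 3 strains, with deposited log2 folds of 1.18 in the xap5 deletion (adjusted p = 3.46e-05), 0.74 in the pht1 deletion (adjusted p = 0.024) and 2.82 in the double deletion (adjusted p = 1.02e-28). These folds had the same direction as the antisense signal at pfl8 and were smaller. The 2 entries lie on the same strand over 1308 bases and may hold some of the same reads, so they are not independent measurements.

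The stretch before pfl8 (chrI:99583-99832, forward strand, RefSeq, ASM294v3) is shown because SPNCRNA.607 runs across all of it. Its capitals mark the letters TATATA, the first of which lies 33 bases before the annotated start.
pfl8 upstream: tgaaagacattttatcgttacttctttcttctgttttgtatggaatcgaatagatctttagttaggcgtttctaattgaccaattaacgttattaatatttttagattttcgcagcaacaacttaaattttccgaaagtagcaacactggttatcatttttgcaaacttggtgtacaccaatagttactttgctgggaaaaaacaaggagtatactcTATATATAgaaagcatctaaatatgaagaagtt
TATATA was found in this window and in that of gsf2, in 2 of the 6 members whose gene models are complete in the reference, beside 26.6% of 4330 such windows of protein-coding genes. The letters GTGGGAA or GTGAGAA on either strand, to which CSL factors such as Cbf11 and Cbf12 are known to bind, were in 0 of those 6 windows and in 3.88% of the 4330. A match is a description of sequence only.

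**Figure D2:**
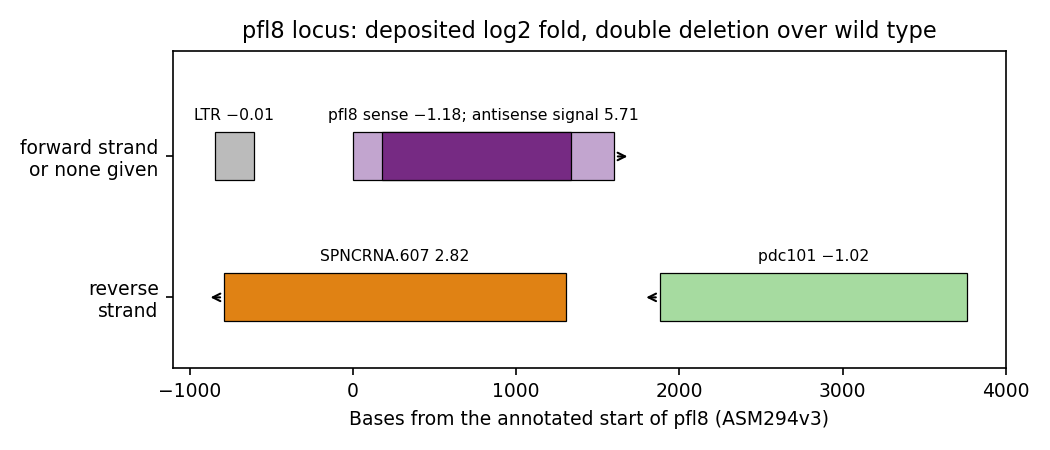
The pfl8 locus drawn to scale, in bases from the annotated start of pfl8 (horizontal axis), with the strand of each feature on the vertical axis and its deposited log2 fold in the double deletion over wild type beside its name. The dark box is the coding sequence and arrows give the direction of transcription. SPNCRNA.607 (2.82) spans nearly all of the coding sequence on the opposite strand, where pfl8 itself had −1.18 in sense and 5.71 in antisense.

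The other member in the antisense table, gsf2, went the opposite way. Antisense signal at gsf2 fell in the double deletion, with a deposited log2 fold of −2.42 (adjusted p = 0.00595), or 0.187 of wild type. Its deposited folds were −1.18 in the xap5 deletion (adjusted p = 0.343) and −0.33 in the pht1 deletion (adjusted p = 0.87). Antisense entries that fell were fewer than those that rose, at 0.76%, 4.75% and 10.2% of the 1052 entries in the xap5, the pht1 and the double deletion. Sense RNA of gsf2 was not called in the double deletion, so neither member listed had antisense and sense changes in the same direction there.

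**Figure D3:**
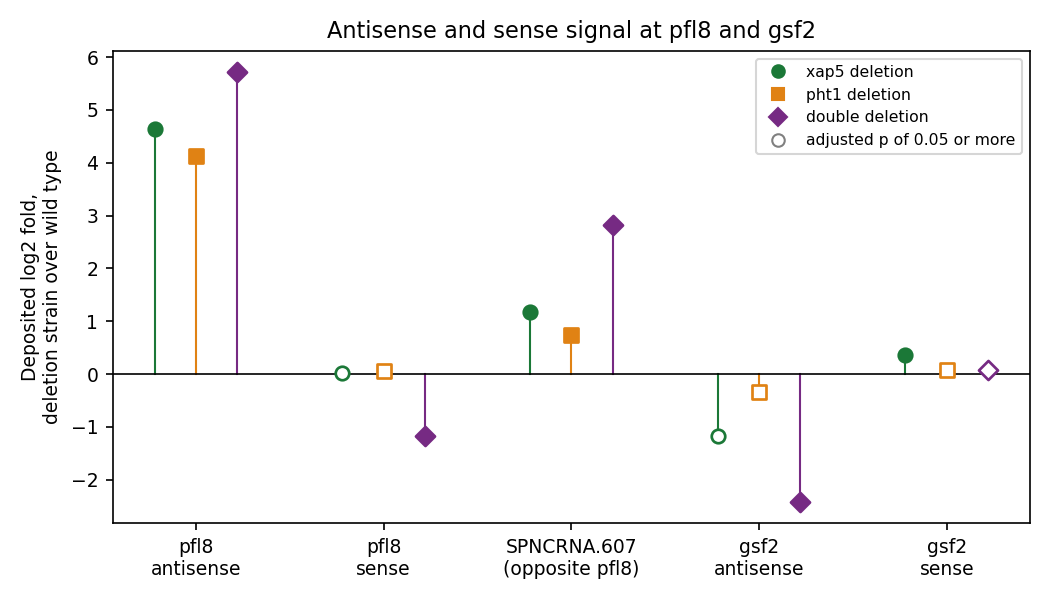
Deposited log2 folds (vertical axis) of antisense and sense signal at pfl8 and gsf2 and of SPNCRNA.607, for the xap5, pht1 and double deletions over wild type. Filled symbols have an adjusted p under 0.05. Antisense signal at pfl8 lies at 4.13 or above in all 3 strains, while antisense signal at gsf2 lies at −2.42 in the double deletion.

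Among the genes with an antisense entry and a sense entry, a rise in antisense went with different calls in sense. In the double deletion antisense signal rose at 799 such genes in the authors' deposited tables, of which 217 also rose in sense, 321 (40.2%) fell as pfl8 did and 261 were not called. Antisense signal fell at 107 genes, of which 28 rose in sense, 49 fell and 30 were not called as gsf2 was not. In the xap5 deletion 233 genes had a rise in antisense, and 140 of these were not called in sense, as was the case at pfl8. In the pht1 deletion the same held for 314 of 435 genes. Of all sense entries, 30.5% rose and 34.3% fell in the double deletion. The shares there were 27.2% and 40.2% where antisense rose, and 26.2% and 45.8% where it fell. In the xap5 deletion 17.6% and 22.3% of the genes with an antisense rise rose and fell in sense, beside 21.1% and 20.6% of all sense entries. In the pht1 deletion these were 8.97% and 18.85%, beside 13.5% and 11.1%.

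Annotated RNAs also lie opposite pfl2 and pfl3. SPNCRNA.954, listed in the antisense table like SPNCRNA.607, overlaps the upstream end of pfl2 by 71 bases on the other strand. It rose as pfl2 did in the xap5 deletion (deposited log2 fold 1.18, adjusted p = 5.30e-10) and the double deletion (1.68, adjusted p = 3.68e-20). In the pht1 deletion SPNCRNA.954 also rose (0.55, adjusted p = 0.0158), while pfl2 was not called there. SPNCRNA.1379, from the sense table, overlaps pfl3 by 303 bases on the other strand and had deposited log2 values of 0.05, −0.90 and −0.23 in the xap5, the pht1 and the double deletion, none of which passed the threshold (adjusted p = 0.977, 0.152 and 0.715).

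The nearest annotated entries on either side of each gene were read next, to show whether a change stopped at its ends. Of the 18 nearest sense entries 9 rose and 3 fell in the double deletion, by the authors' deposited table, with a median log2 fold of 1.16, beside 30.5% and 34.3% of all entries. In the xap5 deletion 6 rose and 1 fell (median 0.25), and in the pht1 deletion 7 rose and 1 fell (median 0.37), again from the deposited table, beside 21.1% and 20.6% of all entries for the xap5 deletion and 13.5% and 11.1% for the pht1 deletion.

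At pfl2 the neighbours rose as pfl2 did. SPAPB18E9.05c, an uncharacterized gene 112 bases away, had a deposited log2 fold of 0.83 in the xap5 deletion, 0.24 in the pht1 and 1.20 in the double deletion (adjusted p = 3.25e-10). SPAPB15E9.02c, 417 bases away on the other side, had deposited folds of 0.99, 0.48 and 1.41 in the same order (double deletion adjusted p = 4.42e-10). The deposited intergenic region between pfl2 and SPAPB18E9.05c also rose in the double deletion, with a fold of 1.19 (adjusted p = 0.00163). Both neighbours, the region between and pfl2 itself thus all rose in the double deletion.

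At pfl3 they did not. The ferric reductase gene frp2, 761 bases downstream, rose in all 3 strains, with deposited log2 folds of 1.04 in the xap5 deletion (adjusted p = 7.30e-06), 0.84 in the pht1 deletion (adjusted p = 8.53e-04) and 1.43 in the double deletion (adjusted p = 5.19e-11), while pfl3 fell. The noncoding RNA SPNCRNA.322 on the other side had 0.86 and 0.78 in the xap5 and pht1 deletions, both called, and 0.36 in the double deletion (adjusted p = 0.168) in the deposited table. The intergenic region between frp2 and pfl3 was not called in any of the 3 deposited comparisons.

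At pfl8 the gene on either side moved differently. Sense RNA of pdc101, annotated as a putative pyruvate decarboxylase and 283 bases away, fell in the pht1 deletion with a deposited log2 fold of −0.63 (adjusted p = 1.76e-04) and the double deletion with −1.02 (adjusted p = 1.11e-11). The spore coat gene isp3, 2866 bases away, rose in the double deletion with a deposited fold of 1.33 (adjusted p = 4.54e-09). An LTR that lies 604 bases before pfl8 and the intergenic region after pfl8 were not called in any of the 3 deposited comparisons. The LTR, at chrI:98988-99228, overlaps the far end of SPNCRNA.607, which rose in all 3 strains, so it is not a separate flank.

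Rises also stood beside pfl9, pfl5 and gsf2. The gene SPAC186.02c, annotated as a hydroxyacid dehydrogenase and 891 bases from pfl9, had deposited log2 folds of 2.63 in the xap5 deletion (adjusted p = 0.00727), 3.29 in the pht1 deletion (adjusted p = 7.90e-05) and 6.34 in the double deletion (adjusted p = 6.07e-30). Next to pfl5, the amine oxidase gene cao2 had 1.56, 0.65 and 2.37 in the same order in the deposited table, all called, and the retrotransposon Tf2-11 rose by 1.96 in the double deletion (adjusted p = 6.90e-41). Next to gsf2, the LTR-proximal noncoding RNA SPNCRNA.478 rose by 1.60 (adjusted p = 7.97e-08) and an LTR 267 bases away by 2.08 (adjusted p = 6.55e-11) in the deposited double deletion comparison. SPNCRNA.1164 on the other side of gsf2 had 0.38 there (adjusted p = 0.0998).

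The neighbours not yet named changed in both directions. At pfl4, the ubiquitin hydrolase gene ubp5 was not called in any deposited comparison, and the pseudogene SPCC188.10c fell in the xap5 deletion (−0.38, adjusted p = 0.0362) and the double deletion (−0.72, adjusted p = 1.11e-05). At pfl7, SPNCRNA.292 fell in the double deletion with a deposited log2 fold of −1.64 (adjusted p = 0.0346), and SPNCRNA.293 was not called in any. At pfl6, SPNCRNA.601 rose in the pht1 deletion (1.01, adjusted p = 0.0342) and the double deletion (1.13, adjusted p = 0.00683) in the deposited table, and ayr2 was not called in any. The amidase gene SPAC869.01 beside pfl9 rose in the pht1 deletion, with a deposited fold of 2.47 (adjusted p = 0.00127).

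**Figure D4:**
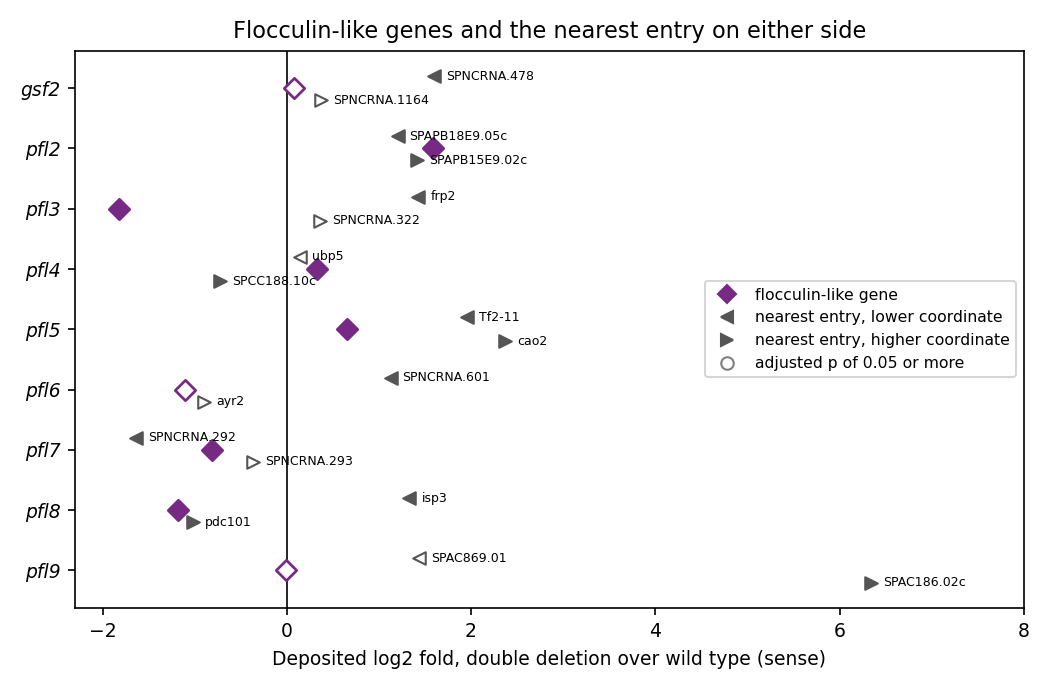
Deposited log2 folds in the double deletion over wild type (horizontal axis) of the 9 flocculin-like genes (diamonds) and of the nearest annotated entry at lower and at higher coordinates (triangles). Filled symbols have an adjusted p under 0.05. SPAC186.02c beside pfl9 lies farthest to the right at 6.34, and frp2 at 1.43 lies opposite its neighbour pfl3 at −1.82.

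The members differed in position. Within 120 kb of a chromosome end of the reference lie pfl6 (42.1 kb), pfl9 (50.2 kb), pfl8 (99.8 kb), pfl5 (114.2 kb) and pfl7 (117.9 kb), that is 5 of 9 (55.6%), beside 4.81% of the 5638 sense entries with a position. The other members lie between 669.6 and 1587.7 kb from an end. The distance of 120 kb was chosen after the values were seen. These 5 members had no common direction in the double deletion, where pfl5 rose, pfl7 and pfl8 fell, and pfl6 and pfl9 were not called in the deposited table.

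Genes known to act on flocculation changed in both directions. Of 17 listed regulators, rfl1 found no match and was left out. Of 16 such regulators in the sense table, 8 rose and 3 fell in the double deletion, by the authors' deposited table, with a median log2 fold of 0.29. In the xap5 deletion 4 rose and 2 fell (median 0.10), and in the pht1 deletion 2 rose and 2 fell (median 0.00), from the same deposited table. Of all entries, 30.5% rose and 34.3% fell in the double deletion, 21.1% and 20.6% in the xap5 deletion and 13.5% and 11.1% in the pht1 deletion.

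Among genes that hold flocculation back, the LAMMER kinase gene lkh1 rose in all 3 strains, with deposited log2 folds of 1.15 in the xap5 deletion (adjusted p = 3.75e-08), 0.73 in the pht1 deletion (adjusted p = 0.0019) and 2.44 in the double deletion (adjusted p = 7.21e-35). The corepressor gene ssn6 rose in the double deletion with a deposited fold of 1.12 (adjusted p = 6.15e-11), while its partner tup11 fell by 0.39 (adjusted p = 0.00319). The second Tup1-like corepressor gene, tup12, fell in the pht1 deletion (−0.31, adjusted p = 0.0417) in the deposited table. Of the kinase module of Mediator, med13 rose in the xap5 deletion (0.48, adjusted p = 5.89e-04) and the double deletion (0.75, adjusted p = 6.24e-09) and the kinase gene srb10 in the double deletion (0.46, adjusted p = 0.00564) in the deposited table. The other 2 genes of that module, srb8 and srb11, were not called in any comparison.

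Of the factors that promote adhesion, mbx2 rose in the pht1 deletion (0.50, adjusted p = 0.0274) and the double deletion (1.34, adjusted p = 2.09e-13), and its deposited fold in the xap5 deletion was 0.17 (adjusted p = 0.481). The CSL factor gene cbf12 fell in the xap5 deletion (−0.89, adjusted p = 7.14e-08) and the double deletion (−0.46, adjusted p = 0.00449) in the deposited table. Its antagonist cbf11 fell in all 3 strains, with deposited log2 folds of −0.41 in the xap5 deletion, −0.43 in the pht1 and −0.74 in the double deletion (adjusted p = 0.00314, 0.00356 and 7.86e-09). Further rises in the deposited double deletion comparison were those of sre2 (0.65), yox1 (0.60) and adn2 (0.37), and in the xap5 deletion those of yox1 (0.92) and the forkhead factor gene fkh2 (0.52).

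Of the 16 regulators, 5 had an antisense entry, and antisense signal at all 5 rose in the double deletion, by the authors' deposited table. Of all 1052 entries of this kind 76.6% rose there, so a rise was common among them. The deposited log2 folds were 3.09 at adn3, 2.16 at med13, 2.15 at srb8, 1.92 at mbx2 and 1.19 at cbf11. At mbx2 and med13 sense rose as well, at cbf11 sense fell, and at adn3 and srb8 sense was not called. None of the 5 was called in antisense in the xap5 deletion, and 2 rose in the pht1 deletion. Of all 1052 entries, 22.5% rose in the xap5 deletion and 41.4% in the pht1 deletion.

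**Figure D5:**
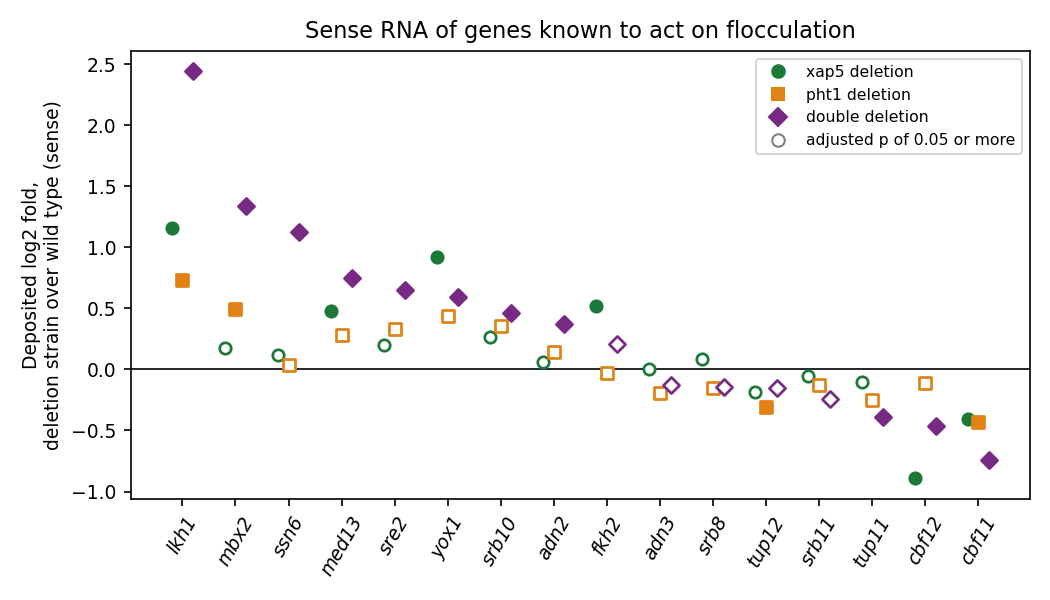
Deposited log2 folds of sense RNA (vertical axis) for 16 genes known to act on flocculation (horizontal axis, ordered by the double deletion fold) in the xap5, the pht1 and the double deletion over wild type. Filled symbols have an adjusted p under 0.05. The double deletion values run from 2.44 at lkh1 to −0.74 at cbf11.

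Other surface glycoprotein and GPI-anchored protein genes are set beside the family without a test between them. Of 16 such genes 9 rose and 2 fell in the double deletion (median log2 fold 0.40), 2 rose and 3 fell in the xap5 deletion (median 0.01) and 4 rose and 0 fell in the pht1 deletion (median 0.07), from the authors' deposited table. Of all entries, 30.5% rose and 34.3% fell in the double deletion, 21.1% and 20.6% did in the xap5 deletion and 13.5% and 11.1% in the pht1 deletion. Among genes past the threshold, the largest changes in the double deletion were those of SPCC569.03 (2.13), SPAC212.12 (−2.04), meu10 (1.60) and SPBPJ4664.02 (1.24). Among those past the threshold in the xap5 deletion they were those of SPCC569.03 (1.14), mug2 (−0.56), aah1 (0.45) and SPCP20C8.01c (−0.35), and in the pht1 deletion those of meu10 (0.86), meu23 (0.56), aah1 (0.33) and SPCC569.01c (0.31), all deposited log2 folds. Both mating agglutinin genes rose in the deposited double deletion comparison, mam3 by 0.96 (adjusted p = 4.67e-04) and map4 by 0.74 (adjusted p = 0.00766), and here too mating type cannot be told apart from the deletions.

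Genes of glucan synthesis and remodelling in the cell wall, to which surface glycoproteins are anchored, were counted in the same way. Of 26 listed wall genes, crf1 and crf2 found no match and were left out. Of 24 such genes 13 rose and 3 fell in the double deletion (median log2 fold 0.45), 8 rose and 1 fell in the xap5 deletion (median 0.19) and 5 rose and 1 fell in the pht1 deletion (median 0.07), from the authors' deposited table. Of all entries, 30.5% rose and 34.3% fell in the double deletion, 21.1% and 20.6% in the xap5 deletion and 13.5% and 11.1% in the pht1 deletion, with medians of −0.05, −0.01 and −0.02. The glucanase gene bgl2 had deposited log2 values of 0.71, 1.07 and 1.86 in the xap5, the pht1 and the double deletion. The cell separation glucanase gene eng1 had 2.33, 0.70 and 1.62, and SPAC4H3.03c had 2.72, 1.21 and 3.58 in the deposited table. Also among the larger deposited changes were agn1 (1.61) and exg3 (1.41) in the xap5 deletion and psu2 in the pht1 (1.42) and double (1.37) deletions. Antisense signal rose at 5 and fell at 1 of the 7 wall genes listed in the deposited antisense table for the double deletion, beside 76.6% and 10.2% of the 1052 entries.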

How the data were processed

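Strand-specific, rRNA-depleted RNA-seq of 13 libraries was compared by the authors, who deposited, per feature, a log2 fold with its p-value and adjusted p-value for each deletion strain against wild type. The authors' column headers read logFC, and base 2 follows the usage of edgeR, a tool the submitters' processing notes name beside BWA 0.5.8c. The deposited p-value columns reach above 1 in 55 sense and 6 antisense values, were treated as a score and served only to recompute adjusted p-values. Per the file headers, a p limit of 0.01 governed listing in the antisense table. Annotation was Ensembl EF2.12 per the file headers, and no genome build was found in the sources used here. Gene positions and sequences are those of ASM294v3, in which 114 of 117 deposited LTRs have the same position.

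Depth per library was not used here and no interval can be given. No own test was run: genes were called at a deposited adjusted p under 0.05, and lists were counted. Tandem repeats were scored in Python 3.11.15 (match 1, mismatch −2, least score 30), and the counting code was tested on simulated data. Named were all members, their nearest entries, called regulators and the 4 largest changes per comparison in each other list. Members and lists were chosen with earlier results of these data known. The alternatives were a stricter threshold, a 2-fold minimum, recomputed adjusted p-values, folds over 20 left out, and pfl6 left out.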

Additional observations from a re-analysis of the deposited data

How the results depend on the processing

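Calls were repeated with a deposited adjusted p under 0.01 and, separately, with a change of at least 2-fold. Under 0.01 the members that rose numbered 2 in the xap5 deletion and 0 in the pht1 deletion, and 0 fell in the xap5 deletion, beside 16.3%, 8.6% and 15.2% of all entries. With the 2-fold minimum 0 rose and 0 fell in the xap5 deletion, 0 rose and 0 fell in the pht1 deletion, and 1 rose and 2 fell in the double deletion, beside 8.23% and 1.04%, 4.11% and 0.522%, and 15.1% and 5.1% of all entries. Regulators called numbered 2 in the pht1 deletion under 0.01, and 1, 0 and 3 in the xap5, pht1 and double deletions with the 2-fold minimum. Wall glucan genes called with that minimum numbered 3 in the pht1 and 6 in the double deletion. Other surface protein genes called numbered 3 (xap5 deletion) and 1 (pht1 deletion) under 0.01, and 1, 0 and 4 in the xap5, pht1 and double deletions with the minimum. Of all entries, 31.4% and 14.4% were called in the xap5 and pht1 deletions under 0.01, and 9.27%, 4.63% and 20.2% in the xap5, pht1 and double deletions with the minimum. Fewer features meet either rule by construction. Of the 33 sense and antisense values of single members, 6 lost their call under 0.01: gsf2, pfl3, pfl5 and pfl9 in the xap5 deletion, pfl5 in the pht1 deletion and pfl4 in the double deletion. Adjusted p-values recomputed over the table kept all 33 calls. In sense the recomputed values lay close to the deposited ones. The antisense table holds only entries selected on their p-value, so its recomputed values were smaller and could lose no call. At gsf2 in the double deletion the antisense adjusted p was 0.00149 when recomputed, beside the deposited 0.00595. For the antisense rises and falls this rule is therefore no test. Leaving out pfl6 could change no count of members, because pfl6 was not called in any comparison and has no antisense entry. Leaving out folds over 20 on the log2 scale could not change the medians, because no member had such a sense fold. The rules on pfl6 and on folds over 20 therefore do not test the counts or medians. No paired analysis was possible because the deposited tables hold no values per library, and leaving out single replicates was not run for the same reason. Precision of a single fold cannot be derived from these tables.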

Other observations

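Beyond the nearest entries, 2 protein-coding genes near gsf2, chosen after their values were seen, rose far more than gsf2 did. In the authors' deposited table smp4 had log2 folds of 2.37, 1.35 and 4.63 in the xap5, the pht1 and the double deletion, and SPCPB16A4.06c had 2.51, 1.77 and 4.88. Sense RNA of gsf2 was not called in the pht1 and double deletions.

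Of the 9 genes that followed pfl8 in antisense fold in the double deletion, 4 rose in sense, 2 fell and 3 were not called in the authors' deposited tables. Beside these, 30.5% of all sense entries rose and 34.3% fell in the double deletion. SPAC343.20 had a deposited antisense log2 fold of 5.56 and a sense fold of 0.94, which rose. SPCC191.10 had 5.51 in antisense and 0.06 in sense, which was not called. The gene duc1 had 5.47 in antisense and 1.13 in sense, which rose. SPBC1685.04 had 5.22 in antisense and −0.85 in sense, which fell as that of pfl8 did, and iss1 had 4.78 in antisense and −0.44 in sense, which also fell. SPBPB21E7.11 had a deposited 4.92 in antisense and 5.16 in sense, so both strands rose there.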
